A study of Homo sapiens with 2 samples.

Results

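The peaks described here are the 332 intergenic sites of myc-KLF7 ChIP-seq signal in CAL27 cells that lay outside dense clusters of peaks, of 1900 peaks in the deposited table. They were chosen by measured values and by position. A peak entered the table because its q-value in this ChIP library was under 0.05, and it was kept here where the deposited annotation gave intergenic as its feature, where it lay on chromosomes 1 to 22 or X, and where fewer than 5 peaks stood together. Peaks were joined into a group when the next start was at most 100000 bp from the previous end. Of 611 intergenic peaks, 274 were in groups of 5 or more and were dropped, and 5 others lay on chromosome Y or on other contigs. CAL27 is an established line from a human tongue squamous cell carcinoma. All cells had received a lentivirus carrying KLF7 with a myc tag. The ChIP library (n = 1) was precipitated with the anti-MYC antibody D3N8F and the input library (n = 1) was sheared chromatin of the same cells without antibody. Neither library was replicated, and cells lacking the tagged protein were not analysed here, so DNA bound through the tag and DNA bound through the cells' own MYC protein cannot be told apart.

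KLF7 is a zinc finger protein of the Krüppel-like factor family, whose members bind GC-rich and CACCC boxes. DNA between genes holds enhancers, which are short stretches where transcription factors meet and which act on genes at a distance, and in epithelial cells many of them carry the site of AP-1, the dimer of FOS and JUN proteins. It also holds satellites, long tandem arrays of short units around the centromeres. The alpha satellite is a tandem array of one such unit, and some of its units carry the CENP-B box, the site of a centromere protein. The E-box CACGTG is the site of MYC with its partner MAX and of related factors.

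The peaks fell into a group of repeated sequence and a group of single-copy sequence, and the sequences below were chosen to show what each holds. A peak was called repeated where over 50% of its words of 31 bases had at least 2 places in GRCh38. All sequences are the + strand of GRCh38 over the 201 bases around the summit, in lower case.

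These first peaks were single-copy, and capitals mark CACGTG or TGANTCA, the AP-1 site with any centre base, whose form with a G or C centre is TGAGTCA. They are the peaks nearest FOXK1, MYDGF and AC097713.1 and, picked after their values were seen, 3 more peaks with TGAGTCA and a high fold enrichment.
Peak nearest FOXK1 (chr7:4642026-4642226): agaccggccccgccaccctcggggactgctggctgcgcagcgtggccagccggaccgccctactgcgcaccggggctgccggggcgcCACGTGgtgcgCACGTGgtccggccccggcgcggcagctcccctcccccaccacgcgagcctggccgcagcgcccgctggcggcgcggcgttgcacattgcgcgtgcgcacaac
Peak nearest MYDGF (chr19:4670269-4670469): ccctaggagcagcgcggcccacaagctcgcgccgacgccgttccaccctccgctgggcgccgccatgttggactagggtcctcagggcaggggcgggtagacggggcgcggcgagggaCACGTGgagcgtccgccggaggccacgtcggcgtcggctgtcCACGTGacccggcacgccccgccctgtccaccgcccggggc
Peak nearest AC097713.1 (chr2:234422344-234422544): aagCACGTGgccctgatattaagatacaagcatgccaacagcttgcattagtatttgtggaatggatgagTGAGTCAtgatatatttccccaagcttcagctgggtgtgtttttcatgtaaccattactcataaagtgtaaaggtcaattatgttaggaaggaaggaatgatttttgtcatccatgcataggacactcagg
Peak nearest CTSL3P (chr9:87792860-87793060): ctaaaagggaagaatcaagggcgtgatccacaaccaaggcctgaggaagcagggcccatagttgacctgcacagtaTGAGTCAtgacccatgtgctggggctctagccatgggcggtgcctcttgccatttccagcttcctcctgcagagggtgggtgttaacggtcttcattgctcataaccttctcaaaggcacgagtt
Peak nearest ACTG1P13 (chr3:99108671-99108871): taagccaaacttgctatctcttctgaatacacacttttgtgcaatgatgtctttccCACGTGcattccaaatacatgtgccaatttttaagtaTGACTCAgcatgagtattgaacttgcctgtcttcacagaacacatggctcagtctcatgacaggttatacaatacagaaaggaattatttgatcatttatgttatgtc
Peak nearest AL355607.1 (chr9:90970651-90970851): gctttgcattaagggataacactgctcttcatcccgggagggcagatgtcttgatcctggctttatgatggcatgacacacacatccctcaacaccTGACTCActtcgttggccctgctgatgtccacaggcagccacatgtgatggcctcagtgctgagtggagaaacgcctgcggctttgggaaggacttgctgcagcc

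The next peaks were among the 10 with the highest fold enrichments, and capitals mark a run of at least 8 CA or TG units.
Peak nearest C10orf128 (chr10:49199521-49199721): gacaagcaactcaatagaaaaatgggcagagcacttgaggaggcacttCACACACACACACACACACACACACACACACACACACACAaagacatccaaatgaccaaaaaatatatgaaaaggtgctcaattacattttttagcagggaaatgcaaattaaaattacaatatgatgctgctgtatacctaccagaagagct
Peak nearest PSMC1P9 (chr12:18650583-18650783): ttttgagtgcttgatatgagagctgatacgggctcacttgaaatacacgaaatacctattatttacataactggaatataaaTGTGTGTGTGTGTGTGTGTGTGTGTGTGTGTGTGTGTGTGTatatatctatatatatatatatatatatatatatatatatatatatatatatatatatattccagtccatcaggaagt

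The last sequences were picked after their values were seen, as 2 peaks with satellite sequence and the peak with the highest pileup. Capitals mark the CENP-B box (TTCG, any 4 bases, A, any 2 bases and CGGG) in the peak nearest OR4C50P and the unit GGAAT in the peak nearest RNU6-845P. The peak nearest RNU6-488P, which had the highest pileup and counted as single-copy, holds neither.
Peak nearest OR4C50P (chr11:53404702-53404902): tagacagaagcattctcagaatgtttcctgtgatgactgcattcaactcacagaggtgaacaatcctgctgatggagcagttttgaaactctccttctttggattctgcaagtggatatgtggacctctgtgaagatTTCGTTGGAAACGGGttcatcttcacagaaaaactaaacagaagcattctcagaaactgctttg
Peak nearest RNU6-845P (chr16:46390624-46390824): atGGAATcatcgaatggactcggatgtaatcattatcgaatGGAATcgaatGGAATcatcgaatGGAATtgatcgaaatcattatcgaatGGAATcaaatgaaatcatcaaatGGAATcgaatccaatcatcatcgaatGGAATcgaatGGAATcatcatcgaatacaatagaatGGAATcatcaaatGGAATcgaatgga
Peak nearest RNU6-488P (chr3:93470486-93470686): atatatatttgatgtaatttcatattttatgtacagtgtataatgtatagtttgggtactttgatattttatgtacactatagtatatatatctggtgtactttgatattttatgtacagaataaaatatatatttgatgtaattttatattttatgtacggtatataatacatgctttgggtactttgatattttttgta

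Most of the intergenic peaks lay in repeated DNA. Of the 332 peaks, 204 (61.4%, 95% Wilson interval 56.1 to 66.5%) were repeated and 128 were single-copy. Every 31-base word was repeated in 187 peaks, and no word was repeated in 103. Among the other peaks outside dense clusters, 5 of 543 promoter peaks (0.921%, 0.394 to 2.14%) were repeated. Of 452 intron peaks, 26 were repeated (5.75%, 3.96 to 8.29%), and of 230 UTR or exon peaks, 1 (0.435%, 0.0768 to 2.42%). None of these intervals overlapped that of the intergenic peaks. The share of repeated windows in the genome is not given here, so no excess over intergenic DNA is shown. In the intergenic peaks of the dense clusters on the same chromosomes, which were not members, 179 of 180 were repeated. These intervals, and all others given here, cover counting error over peaks only, and no difference between sets of peaks was tested, since peaks of 1 library are not replicates.

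**Figure D1:**
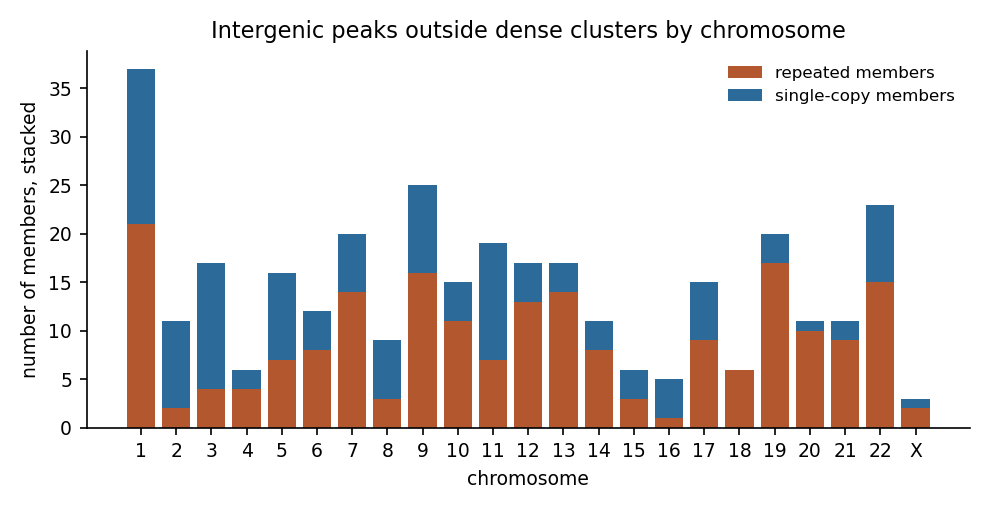
Number of intergenic peaks outside dense clusters on each chromosome, with repeated peaks (brown) below single-copy peaks (blue) in each stacked bar. Repeated peaks occurred on all 23 chromosomes and single-copy peaks on 22, with none on chromosome 18.

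Repeated peaks occurred on all 23 chromosomes examined, with at most 21 on 1 of them. Single-copy peaks occurred on 22, with at most 16 on 1 of them and none on chromosome 18. The repeated peaks were far from genes. Their median distance to the nearest gene start in the deposited table was 795939 bp (95% interval 621336 to 952071), and 132 of 204 were over 500 kb away. The single-copy peaks had a median distance of 16632 bp (12021 to 21583), and 0 of 128 were over 500 kb away. Over all 332 peaks the median was 205928 bp (78917 to 373194), and 208 peaks (62.7%, 57.3 to 67.7%) were over 50 kb away, 181 of them repeated. A neighbouring peak within 100 kb was present for 127 repeated peaks, and for 121 of these the nearest peak was intergenic too. Of the 41 single-copy peaks with such a neighbour, the nearest was intergenic for 8, in a promoter for 8, in an intron for 16 and in an exon or UTR for 9.

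**Figure D2:**
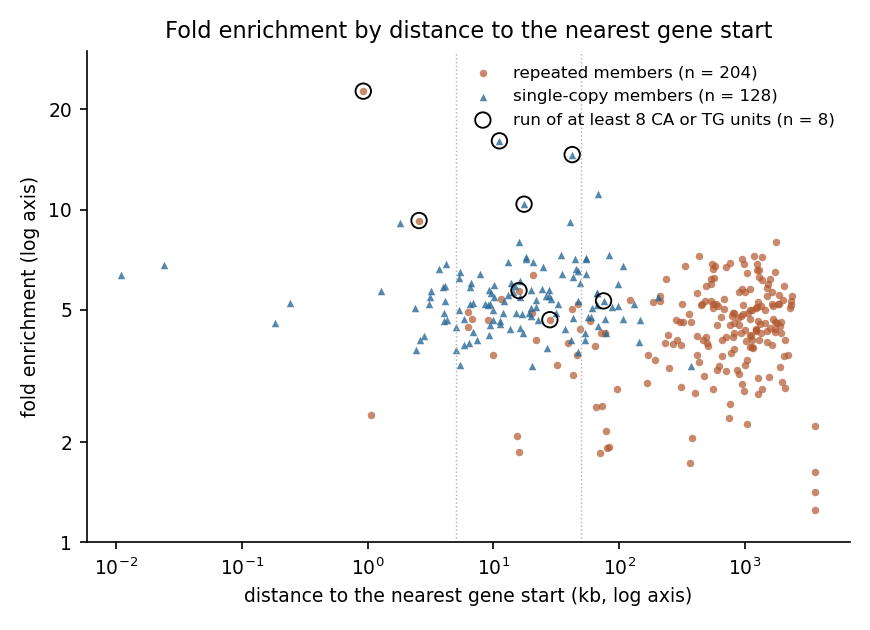
Fold enrichment (log axis) against the distance to the nearest gene start in kb (log axis) for repeated (brown circles) and single-copy peaks (blue triangles), 1 point per peak, with dotted lines at 5 and 50 kb. Most repeated peaks sit beyond 50 kb (181 of 204) and most single-copy peaks within it, and the ringed peaks with a run of CA or TG units hold the 3 highest values.

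The repeated peaks for the most part matched themselves at a shift near the length of an alpha satellite unit. Each peak was compared with itself at shifts of 160 to 180 bases, over 350 bases on either side of its summit, and the highest identity was over 40% in 177 of 204 repeated peaks. In the single-copy peaks the median identity was 29.4%, and 1 of 128 was over 40%. When each repeated peak was counted once, 8 had over 25% of their length in GGAAT units, the unit of another pericentromeric satellite. These 8 had a median identity of 47.8%, so an identity over 40% does not by itself single out alpha satellite. A further 4 held a CA run, 170 others passed 40% identity and 22 met none of these cuts. The cut on GGAAT units parted neighbouring peaks of like content, as in the chromosome 1 group described below. The 170 peaks had a median identity of 54.7%, with 171 bases as the best shift in 131 of them, lay on 21 chromosomes and had a median of 1463 genomic copies per word, with a median GC content of 39.3%. The CENP-B box was found within 100 bp of the summit in 71 repeated peaks (34.8%, 28.6 to 41.6%). The intergenic peaks of the dense clusters held it in 56 of 180 (31.1%, 24.8 to 38.2%), within counting error of that share. It was in 0 of 128 single-copy peaks, which allows up to 2.34%, but these were chosen for lacking repeated words, so the 0 is not a separate result. The box was present in 0.883% of 14482889 windows of 201 bases that tile the genome. Of the 170 peaks, those with the box had a median fold enrichment of 4.74 (4.35 to 5.17, n = 70) and those without it 4.43 (4.18 to 4.75, n = 100), and these intervals overlap.

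**Figure D3:**
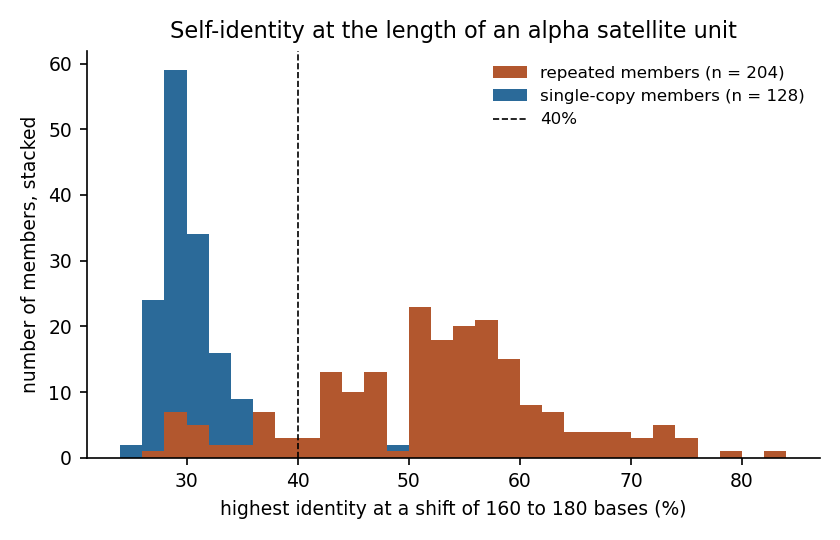
Histogram of the highest identity of each peak with itself at a shift of 160 to 180 bases, in percent, for repeated (brown) and single-copy peaks (blue), stacked, in bins of 2 percentage points. The single-copy peaks lie around 29.4% with 1 above the dashed line at 40%, and 177 of the 204 repeated peaks lie above it.

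Over all 332 peaks, the median pileup was 14 fragments (14 to 15), the median fold enrichment was 4.87 (4.67 to 5.06) and the median length was 217 bp (213 to 222). The median fold enrichment of the 543 promoter peaks was 5.27 (5.13 to 5.39), a difference of -0.402 for intergenic minus promoter peaks. Pileup, which counts ChIP fragments at the summit, was high where the background was high. The background rate is the number of fragments that the peak caller predicted at the summit, and was recovered as (pileup + 1) / fold enrichment - 1. In the repeated peaks, pileup ranged from 7 to 2920 with a median of 18 (15 to 21), the median rate was 3.14 (2.51 to 3.71) and the median fold enrichment was 4.55 (4.30 to 4.69). In the single-copy peaks, the median pileup was lower, at 12.5 (12 to 13), the median rate was 1.33 (1.26 to 1.57), and the median fold enrichment was higher, at 5.23 (5.11 to 5.48). Across peaks, Spearman's rank correlation of pileup and rate was 0.919 in the 204 repeated peaks and 0.610 in the 128 single-copy peaks, values that describe peaks of the same library and share the pileup in both terms. Where the rate was under 1.5, 117 peaks had a median fold enrichment of 5.32, whereas the 9 peaks with a rate of at least 100 had a median of 1.87. The q-value threshold admits a low fold enrichment only where the rate is high, and the lowest fold enrichment was 3.80 at rates under 1.5 and 1.25 at rates of at least 100, so these medians describe the selected peaks. How far reads that match many places in the genome contributed to these pileups was not tested.

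**Figure D4:**
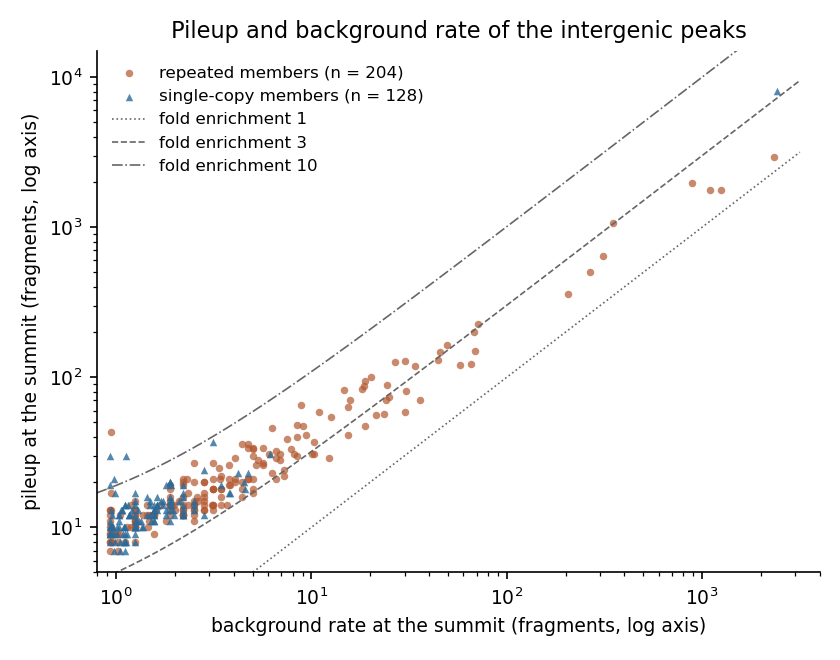
Pileup at the summit against the background rate, both in fragments on log axes, for repeated (brown circles) and single-copy peaks (blue triangles), with lines of equal fold enrichment at 1, 3 and 10. The points with rates of at least 100 all lie below or near the line of 3, and the single-copy peak at the upper right is the one nearest RNU6-488P, with a pileup of 8146.

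The peaks with the most fragments were mostly repeated, 9 of the 10 highest by pileup. The highest lay on chromosome 3 from 93470382 to 93470757, with a pileup of 8146 against a rate of 2408, a 3.38-fold enrichment, and its -log10 q was 1814. By its words it counted as single-copy, but its GC content around the summit was 20.9% and its highest identity at a shift of 160 to 180 bases was 49.9%, the only value over 40% among the single-copy peaks. The next 4 stood together on chromosome 1, from 125178923 to 125182718, and were also the farthest of all from a gene start, 3598623 to 3601905 bp from LINC01691. Their pileups were 1773, 1777, 2920 and 1979 in the order of position, and their fold enrichments were 1.42, 1.62, 1.25 and 2.23. In the same order, GGAAT units made up 21.1, 30.6, 23.2 and 22.5% of their length, so only the second passed the cut of 25%. The peak on chromosome 16 from 46390619 to 46390830, nearest RNU6-845P, had a pileup of 1062 at 3.02-fold enrichment, with 25.9% of its length in GGAAT units. The others of the 10 were 2 peaks on chromosome 17 nearest AC069061.1, with pileups of 639 and 358, a peak on chromosome 20 nearest DEFB115 with 502, of which 82.6% was GGAAT units, and a peak on chromosome 1 from 122842648 to 122842837 with 226. The highest fold enrichment among these 10 was 3.38.

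The highest fold enrichments lay at runs of CA or TG units. Such a run was found in 8 of 332 peaks (2.41%, 1.23 to 4.68%), 4 repeated and 4 single-copy, compared with 0.623% of genome windows and 4 of 543 promoter peaks (0.737%, 0.287 to 1.88%). Intron peaks held one in 12 of 452 (2.65%, 1.53 to 4.58%), an interval that overlaps that of the intergenic peaks. The peak with the highest fold enrichment was on chromosome 1, 922 bp from the start of AL035411.2. Its pileup was 43 (exact 95% Poisson interval 31.1 to 57.9) against a rate of 0.940, a fold enrichment of 22.7, and its run was 45 bases long. The peaks nearest C10orf128 and PSMC1P9 each had a pileup of 30 (20.2 to 42.8), with fold enrichments of 16.1 and 14.6 and runs of 40 and 41 bases. The peak nearest GSTM5P1 had a pileup of 19 at 10.4-fold enrichment, and the peak nearest SIPA1L2 a pileup of 17 at 9.27-fold enrichment. These 5 peaks were among the 10 highest, and the other 3 peaks with a run had fold enrichments of 4.67, 5.32 and 5.71. The peaks nearest C10orf128 and GSTM5P1 had a rate of 0.927, the lowest among the 332 peaks. Rates under 0.93 were found in 18 of the 332. Whether so low a rate reflects the input fragments at the peak was not tested.

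The rest of the 10 highest by fold enrichment were without a run. The peak nearest DNAH5 in the deposited table, an axonemal dynein gene, lay on chromosome 5 from 14011493 to 14011928, with a pileup of 21 (13 to 32.1) at 11.2-fold enrichment. The peak nearest FOXK1, a forkhead repressor gene, lay on chromosome 7 from 4641834 to 4642279, 40252 bp from its start, with a pileup of 37 (26.1 to 51), 9.18-fold enrichment and 2 copies of CACGTG. The peak nearest SNAI2 lay on chromosome 8 from 48923323 to 48923780, 1811 bp upstream of the start, with a pileup of 17 (9.90 to 27.2), 9.08-fold enrichment and 1 TGAGTCA. SNAI2 encodes SLUG, a repressor of epithelial genes in the epithelial-mesenchymal transition. Both words stood in the peak nearest AC097713.1, whose pileup was 17 at 7.98-fold enrichment. The last was a repeated peak on chromosome 13 nearest AL356585.4, with a pileup of 27 at 7.97-fold enrichment.

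The AP-1 site was common in the single-copy peaks and nearly absent from the repeated ones. Over all 332 peaks, TGANTCA was present in 40 (12.05%, 8.97 to 15.99%), CACGTG in 34 (10.2%, 7.42 to 13.97%) and GGGGCGGGG in 5 (1.51%, 0.645 to 3.48%). TGANTCA, searched on both strands within 100 bp of the summit, was found in 39 of 128 (30.5%, 23.2 to 38.9%), compared with 6.20% of all genome windows and 3.91% of windows of the same length around 19969 protein-coding gene starts. In single-copy promoter peaks it was found in 30 of 538 (5.58%, 3.93 to 7.85%). In single-copy intron peaks over 5 kb from a gene start it was found in 62 of 218 (28.4%, 22.9 to 34.8%), so the share in intergenic peaks was above that in promoter peaks with no overlap of the intervals, and within counting error of that in distal introns. The 128 include peaks within 5 kb of a gene start, which that intron set leaves out. In the 107 single-copy intergenic peaks over 5 kb away, TGANTCA was found in 35 (32.7%, 24.6 to 42.1%). The form TGAGTCA, which TGANTCA includes, made up most of the 39, with 32 of 128 (25%, 18.3 to 33.2%) against 3.003% of genome windows. TGAATCA, the other form, was found in 8 of 128 (6.25%, 3.20 to 11.8%) against 3.29%. In the repeated peaks TGANTCA was found in 1 of 204. Where the GC content of the window was under 50%, 8 of 30 single-copy peaks held TGANTCA, compared with 6.58% of genome windows of that content. At 50 to 60% it was 23 of 53 (43.4%, 30.95 to 56.7%) against 4.72%, and at 60% or more it was 8 of 45 (17.8%, 9.29 to 31.3%) against 2.66%.

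**Figure D5:**
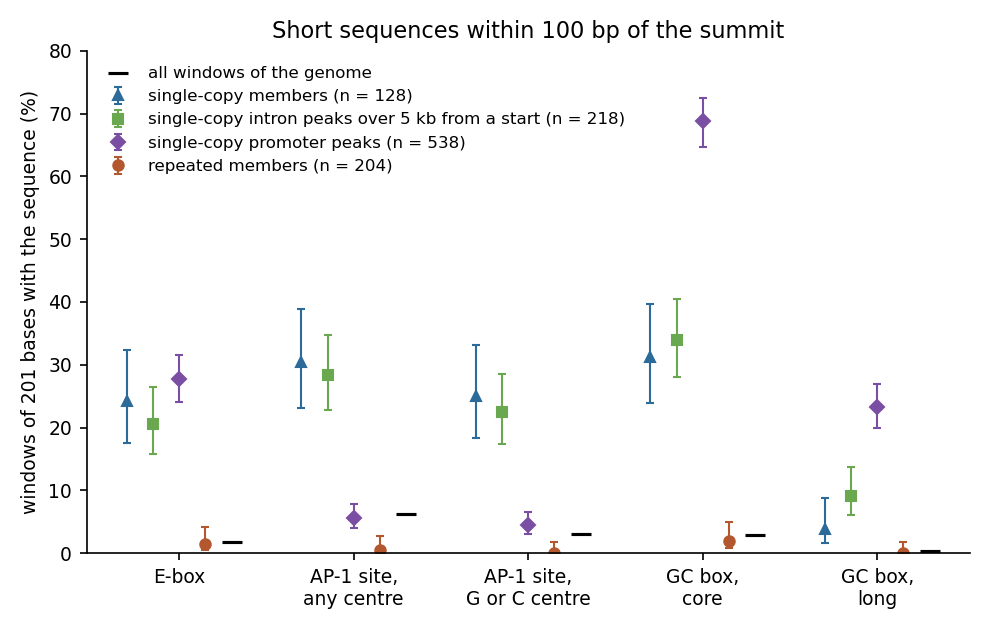
Share of windows of 201 bases around the summit, in percent, that hold the E-box (CACGTG), the AP-1 site with any centre (TGANTCA) or with a G or C centre (TGAGTCA), the GC box core (GGGCGG) or its longer form (GGGGCGGGG), with 95% Wilson intervals as bars, and the share of all genome windows as black ticks. Single-copy intergenic peaks lie beside distal intron peaks for the E-box, the AP-1 site and the GC box core. They lie above promoter peaks for the AP-1 site and below promoter peaks for both GC boxes.

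The E-box was also frequent in the single-copy peaks. CACGTG was present in 31 of 128 (24.2%, 17.6 to 32.3%), compared with 149 of 538 single-copy promoter peaks (27.7%, 24.1 to 31.6%) and 45 of 218 distal single-copy intron peaks (20.6%, 15.8 to 26.5%), and these 3 intervals overlap. It was present in 1.85% of genome windows and in 5.88% of windows at protein-coding gene starts. Among repeated peaks it was found in 3 of 204 (1.47%, 0.501 to 4.23%). By GC content of the window, 7 of 30, 12 of 53 and 12 of 45 single-copy peaks held it, from the lowest to the highest band, where genome windows gave 1.46%, 3.48% and 5.03%. It lay at a median distance of 41.5 bp from the summit (25.5 to 62.5, n = 31), compared with 26.5 bp (21.5 to 34.5, n = 149) in promoter peaks. For TGANTCA the median distance in the single-copy peaks was 53 bp (21 to 69, n = 39). No distance was computed for sites placed without regard to the summit. The medians of the single-copy peaks therefore do not show that either site is centred on the summit. Both sequences were present in 10 single-copy peaks (7.81%, 4.30 to 13.8%) and at least 1 of them in 60 (46.9%, 38.4 to 55.5%). Distal single-copy intron peaks held both in 11 of 218 (5.05%, 2.84 to 8.81%) and at least 1 in 96 (44.04%, 37.6 to 50.7%), within counting error of the intergenic peaks, and single-copy promoter peaks held both in 9 of 538 (1.67%, 0.883 to 3.15%). Of the 107 single-copy intergenic peaks over 5 kb from a gene start, 24 held CACGTG (22.4%, 15.6 to 31.2%). Both sequences were in 10 of these 107 (9.35%, 5.16 to 16.4%) and at least 1 in 49 (45.8%, 36.7 to 55.2%).

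The 10 peaks with both sites were spread over 7 chromosomes, and they had pileups of 9 to 17 and fold enrichments of 3.73 to 7.98. None lay within 5 kb of a gene start. Of all 128 single-copy peaks, 21 (16.4%, 11.0 to 23.8%) lay that near, and 10 peaks are too few to show a lower share. Of the 10, the peak nearest to a gene start was 5290 bp upstream of B4GALNT4, a glycosyltransferase gene, with a pileup of 13 at 5.01-fold enrichment. Others lay 27792 bp upstream of H1F0, which encodes a linker histone, and 46971 bp upstream of TIPARP, which encodes an ADP-ribosyltransferase, with fold enrichments of 5.49 and 3.73. These genes are named as the nearest in the table and were picked after their values were seen.

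The GC box was less frequent here than in promoters. GGGGCGGGG was found in 5 of 128 single-copy peaks (3.91%, 1.68 to 8.82%), compared with 125 of 538 single-copy promoter peaks (23.2%, 19.9 to 26.98%), 20 of 218 distal intron peaks (9.17%, 6.02 to 13.7%), 0.286% of genome windows and 15.9% of protein-coding gene starts. The shorter GGGCGG, which the longer form contains, was found in 40 of 128 (31.2%, 23.9 to 39.7%), compared with 370 of 538 single-copy promoter peaks (68.8%, 64.7 to 72.5%). It was in 74 of 218 distal intron peaks (33.9%, 28.0 to 40.5%), within counting error of the intergenic share, 2.85% of genome windows and 46.9% of gene starts. Of the 107 single-copy intergenic peaks over 5 kb from a gene start, 5 held GGGGCGGGG and 32 held GGGCGG. The intervals of intergenic and promoter peaks did not overlap for either form. GC content moved with this result, with a median of 57.2% (55.2 to 59.2%) in the single-copy intergenic peaks and 69.7% (68.7 to 70.1%) in the single-copy promoter peaks, and its part was not tested. In the band of 60% GC or more, 32 of 45 single-copy peaks (71.1%) held GGGCGG against 29.8% of genome windows, and 4 of 45 (8.89%) held GGGGCGGGG against 4.81%. The CACCC-type box GGGTGTGG was found in 7 of 128 single-copy peaks (5.47%, 2.67 to 10.9%), 22 of 543 promoter peaks (4.05%, 2.69 to 6.06%) and 1.58% of genome windows. Distal single-copy intron peaks held it in 15 of 218 (6.88%, 4.21 to 11.0%). Genome windows held it in 0.940% under 50% GC, 4.83% at 50 to 60% and 3.88% at 60% or more. The interval of the single-copy peaks includes the last 2 of these shares. The element of p63, a master factor of squamous epithelium, searched by its consensus, was found in 0 of 128 single-copy peaks. That count allows a share of up to 2.34%, and the element was in 0.063% of genome windows, so the 0 cannot show a low share. The core of the insulator protein CTCF was found in 2 of 128 (1.56%, 0.430 to 5.52%), compared with 0.0471% of genome windows.

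Fold enrichment overlapped between the peaks with and without each of these sites. Single-copy peaks with CACGTG had a median fold enrichment of 5.19 (4.87 to 6.35) and those without it 5.23 (5.11 to 5.48). With and without TGANTCA the medians were 5.18 (4.86 to 5.66) and 5.32 (5.06 to 5.63). When the single-copy peaks were divided into 3 parts by fold enrichment, CACGTG was present in 10 of 43, 9 of 42 and 12 of 43 from the lowest to the highest part, and TGANTCA in 13, 14 and 12. With GGGCGG the median was higher, at 5.52 (5.23 to 5.998) against 5.17 (4.88 to 5.32) without it, with intervals that overlap, and GGGCGG was present in 9 of 43, 15 of 42 and 16 of 43. By distance, CACGTG was present in 7 of 21 peaks up to 5 kb from a gene start, 18 of 80 peaks at 5 to 50 kb and 6 of 27 beyond 50 kb, and TGANTCA in 4, 28 and 7.

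Some of the peaks annotated as intergenic lay at gene starts. In the deposited table, the peak nearest MYDGF was 11 bp upstream of the gene start, on chromosome 19 from 4670284 to 4670479, with a pileup of 13 (6.92 to 22.2), 6.35-fold enrichment and 2 copies of CACGTG. MYDGF encodes a secreted growth factor. The peak at SFPQ, a splicing factor gene, was 24 bp from the start with a pileup of 13 at 6.80-fold enrichment. The peak at CD55, which encodes a complement inhibitor of the cell surface, was 183 bp from the start with a pileup of 15 at 4.56-fold enrichment. The peak nearest AL161756.1, 242 bp from its start, had a pileup of 10 at 5.23-fold enrichment. Against GENCODE v44, 17 of 332 peaks (5.12%, 3.22 to 8.05%) had a gene start within 2000 bp of the summit, 15 of them single-copy, and 30 overlapped an annotated gene. The starts belonged to 8 protein-coding genes, 7 lncRNA genes, 1 pseudogene and 1 miRNA gene. The 8 were SFPQ, CD55, MYDGF, SNAI2, ARHGAP35 (a GTPase-activating protein), DNAH5, PAM (a peptide-amidating enzyme) and LARP1 (an RNA-binding protein that acts on messages of the translation machinery), named after their values were seen. The deposited table placed DNAH5 67167 bp away where a GENCODE start of that gene lay 94 bp from the summit, and it named AP2S1 and MIR1303 as nearest where GENCODE had starts of ARHGAP35 at 861 bp and LARP1 at 324 bp. The peak nearest FOXK1 had a GENCODE lncRNA start 122 bp from its summit.

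The genes nearest to the peaks were mostly not protein-coding in GENCODE v44. Of the nearest starts, 65 (19.6%) belonged to protein-coding genes, 80 to lncRNA genes and 152 to pseudogenes. For the repeated peaks, 133 of 204 (65.2%) were pseudogenes, and for the single-copy peaks 50 of 128 (39.1%) were protein-coding. The same shares over all GENCODE v44 genes and over the other peaks were not counted. These counts therefore do not show that the intergenic peaks differ from the annotation as a whole. Upstream positions were counted for 193 of 332 peaks (58.1%, 52.8 to 63.3%), 107 of the repeated and 86 of the single-copy peaks. Promoter peaks were upstream in 343 of 543 (63.2%, 59.0 to 67.1%), an interval that overlaps that of the intergenic peaks. The share was 72 of 218 (33.0%, 27.1 to 39.5%) in distal single-copy intron peaks. In the intergenic peaks of dense clusters it was 80 of 180 (44.4%, 37.4 to 51.7%). In 5 gene lists, covering squamous epithelial genes (49), KLF and SP factors (27), the MYC, MAX and MXD network (24), AP-1, TEAD and Hippo genes (32) and stemness and EMT genes (30), SNAI2 was the 1 gene named as nearest to any of the 332 peaks. Over all 1557 peaks outside dense clusters on these chromosomes, the lists were named 8, 2, 4, 6 and 3 times, in that order.

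In length, the single-copy peaks had a median of 231.5 bp (221 to 247), the repeated peaks 212 bp (208 to 218) and promoter peaks 262 bp (253 to 270). The widest peak was 854 bp long, on chromosome 2 from 70142180 to 70143033 nearest LINC01816, with a pileup of 14, 4.27-fold enrichment and 1 CACGTG. The next were a repeated peak on chromosome 13 nearest AL356585.4 (831 bp, fold enrichment 2.61), a repeated peak on chromosome 17 nearest AC069061.1 (639 bp, 1.73) and a single-copy peak on chromosome 7 nearest IGF2BP3 (601 bp, 6.86), followed by a peak of the chromosome 1 group above (578 bp). IGF2BP3 encodes an oncofetal RNA-binding protein.

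At the limits of the rule, the members with the weakest q-values were the peaks nearest AC148476.1 and CLDN5, with q of 0.0467 and 0.0346, a pileup of 7 each and fold enrichments of 3.80 and 3.91. The 31 peaks in groups of 4, the largest groups kept, had a median pileup of 31 and a median fold enrichment of 4.33. The 16 intergenic peaks in groups of 5, just outside the rule, had medians of 44.5 and 4.398.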

How the data were processed

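The authors trimmed the reads with Trimmomatic, mapped them with BWA, removed duplicates and used MACS2 to call peaks, with the input as control, and the submitters' processing notes name hg38. In the deposited table, pileup is a signal (ChIP fragments over the summit), fold enrichment is a ratio to the local background, and the -log10 q-value comes from the peak caller, whose -log10 p-value was not used. The table gives no read totals, so the depth of each library is unknown here. Of 1385 gene identifiers in the table that GENCODE v44 holds, 1377 were on the same chromosome and 822 had the same gene start, so distances to a gene start depend on the annotation. Positions were read as GRCh38, counted from 1.

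Peaks were grouped by position, words of 31 bases were counted on both strands of the genome, and motifs were searched on both strands within 100 bp of the summit. The values describe 1 library pair, so no test was made. Shares have Wilson intervals, medians order-statistic intervals and pileups exact Poisson intervals, all at 95% and for counting error only. A count of 0 was given the share that 3 counts would make. The range of shifts for the satellite period was set after the values were seen, and the sequence measures were tested on simulated data. The sequence of 1 named peak is not reported here. The peaks and gene lists were chosen with earlier results of these data known. Peaks were named by rank (10 by fold enrichment, 10 by pileup, 5 by -log10 q, 5 nearest to and 5 farthest from a gene start, 5 widest) or by a gene of a list within 50 kb, apart from those said to be picked after their values were seen. Alternatives covered thresholds, grouping, annotation, window and word length. Python 3.11.15 was used with numpy 2.4.6, pandas 2.3.3, scipy 1.17.1, numba 0.67.0 and matplotlib 3.10.9.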

Additional observations from a re-analysis of the deposited data

How the results depend on the processing

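Of 215 values computed under alternative settings over 17 results, 164 stayed within the counting interval of the value reported or, for the number of peaks, within 1.5 times it, and 51 moved beyond. The differences from promoter peaks kept their sign, but with the repeated peaks left out their intervals span both signs. The settings for the shares in single-copy peaks alone were chosen after seeing the data.

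Leaving out the repeated peaks kept 128 peaks, with a median pileup of 12.5, fold enrichment of 5.23, length of 231.5 bp and distance of 16632 bp, and 21.1% over 50 kb away. CACGTG was then in 24.2%, TGANTCA in 30.5%, GGGGCGGGG in 3.91%, and 11.7% had a GENCODE start within 2000 bp. The difference from promoter peaks became -0.0385 in median fold enrichment, from -0.402, and -3.48 percentage points in the share with CACGTG, from -17.2.

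A fold enrichment of at least 5 kept 153 peaks, with a median of 5.73 and a median distance of 66212 bp. Of these, 53.6% lay over 50 kb away, 47.7% were repeated, 14.4% held CACGTG, 16.3% held TGANTCA and 8.50% had a GENCODE start within 2000 bp. A q-value under 0.001 gave a median fold enrichment of 5.17.

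With no clusters dropped there were 512 peaks, with a median pileup of 20, fold enrichment of 4.58 and distance of 484764 bp, 73.6% over 50 kb away, 74.8% repeated and 8.20% with TGANTCA. Joining neighbours up to 50 kb gave a median distance of 443785 bp, 68.7% over 50 kb away and 67.7% repeated. Joining up to 200 kb gave 59369 bp, 53.1% and 50.6%, with a median pileup of 13. Dropping groups of 3 or more gave 67081 bp, 54.8% and 52.0%.

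Leaving out peaks at GENCODE genes or starts gave a median distance of 372558 bp, from 205928 bp, with 68.9% over 50 kb away and 66.6% repeated. Measured to the nearest GENCODE protein-coding start, the median distance was 666018 bp and 73.8% lay over 50 kb away. Within 50 bp of the summit, CACGTG was in 6.33% and TGANTCA in 5.72% of all peaks, and CACGTG in 14.8%, TGANTCA in 14.1% and TGAGTCA in 10.9% of single-copy peaks. Within 200 bp, TGANTCA was in 16.3% and GGGGCGGGG in 3.61% of all peaks, and TGANTCA in 40.6% and TGAGTCA in 35.2% of single-copy peaks.

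Wider windows hold more bases, and other causes were not tested. With a median pileup of 14 fragments, single peaks have wide counting intervals. No paired analysis was possible because there was 1 ChIP library and 1 input library.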

Other observations

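Apart from the peak nearest RNU6-488P, the single-copy peaks with the highest background rates stood together on chromosome 11. The 4 peaks lay between 35.0 and 35.9 Mb, with rates of 6.15, 4.49, 4.57 and 4.71 in the order of position, compared with a median of 1.33 over the 128 single-copy peaks. Their pileups were 31, 20, 18 and 23 and their fold enrichments 4.47, 3.83, 3.41 and 4.204. Their nearest genes in the table were MIR1343, AL356215.1, FJX1 and AC090692.1, and the nearest GENCODE start to the second was CD44, which encodes a hyaluronan receptor, at 27203 bp. The first held CACGTG and the other 3 held TGAGTCA. The next highest rates, 4.19 and 3.83, were those of a pair of peaks on chromosome 3 at 156.5 and 156.6 Mb, nearest AC084036.1 and TIPARP. The number of copies of these regions in CAL27 was not tested.

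Per length, single-copy peaks were most frequent on chromosome 22, with 8 peaks or 15.7 per 100 Mb, followed by chromosome 11 with 12 peaks or 8.88 per 100 Mb. Chromosome X had 1 single-copy peak, or 0.641 per 100 Mb. These densities rest on few peaks and were not set against the density of all peaks or of genes. The count on chromosome 11 includes the group of peaks with high background rates described above. Of the other single-copy peaks, picked after their values were seen, 1 lay 5312 bp upstream of S100A7, which encodes psoriasin, with a pileup of 11, 6.23-fold enrichment and CACGTG. Another lay 16163 bp upstream of LGALS3, which encodes galectin-3, with a pileup of 13, 6.11-fold enrichment and TGAGTCA.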
